A study of Saccharomyces cerevisiae with 8 samples.

Results

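The comparison described here is that of the strain labelled rnt1ts with wild type, both growing exponentially at 26 C, in the budding yeast Saccharomyces cerevisiae. It rests on 3 of the 8 Affymetrix arrays of the series, 1 array of rnt1ts cells and 2 arrays of wild type cells that the labels call biological replicates. The arrays were taken by their strain and temperature labels, and all 9275 probe sets that are not array controls were compared. The labels give the genotypes as wild type, rnt1d and rnt1ts and say neither what the ts allele is nor whether the strains share a background. Cells grew in complete medium with or without leucine, and the labels leave unsaid which array had which. The other 5 arrays, 2 of rnt1d at 26 C and 1 of each strain at 37 C, entered the normalization, and the rnt1d arrays at 26 C also helped to set the spread.

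RNT1 encodes the RNase III of yeast, a nuclear enzyme that cuts double-stranded stems in precursor RNAs. Its cuts release snoRNAs, the guides for chemical modification of ribosomal RNA, from precursors that hold several of them or that begin well upstream of the mature RNA, and exonucleases then trim the ends. It also cuts precursors of ribosomal RNA and of spliceosomal snRNAs, and some mRNAs. Yeast cells of mating type a or alpha each transcribe their own set of genes for pheromones and receptors, and a strain's mating type is set by the allele at the MAT locus.

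Each value below is a probe set's signal after all arrays were brought to a common distribution. Background on each array was set by controls: a signal counts as above it only where it exceeds the brightest of 19 controls for foreign transcripts, a bound of 10.2 on the rnt1ts array and of 9.32 and 8.75 on the wild type arrays. Differences are log2(signal + 16) of rnt1ts minus the mean of the wild type arrays, which understates changes of dim transcripts. A probe set is called higher or lower where limma's test, adjusted by Benjamini and Hochberg over all 9275 probe sets, gave a value under 0.05. The spread came from wild type and rnt1d at 26 C, with 2 residual degrees of freedom, and the lone rnt1ts array was assumed to vary like them. The p-values therefore say nothing about how a second rnt1ts culture would behave. On both mutant arrays at 37 C the RNT1 signal went against the label, 71.4 on the array labelled rnt1d and 1.26 on that labelled rnt1ts. Those arrays are therefore compared in no test here, though they entered the normalization and the variance trend behind the p-values. The few values given from them are named by the array's label.

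In all, 54 probe sets (0.582% of those tested) were called higher and 19 (0.205%) lower in rnt1ts than in wild type, 0.787% in either direction. All 73 lay at least 2-fold from both wild type arrays. By that fold alone, without a test, 106 probe sets (1.14%) were higher and 69 (0.744%) lower (1.89% together), while the wild type arrays themselves lay 2-fold or more apart at 83 probe sets. The called probe sets with a single gene numbered 59 and covered 54 genes, 4 stood for several genes and 10 were unnamed in the annotation used, 9 of these higher and 1 lower. Genes of the mating-type lists gave 12 of the calls, 6 higher and 6 lower, and were set apart from the other 61, of which 48 were higher and 13 lower. With either wild type array left out, 0 probe sets passed the adjusted threshold in limma, although 630 without replicate 1 and 539 without replicate 2 had an unadjusted p under 0.05, against 831 with both. With the mutant arrays at 37 C left out 64 probe sets were called, all of them among the 73. Of the 59 with a single gene, 31 lost their call on the deposited scale, 30 with only the 3 arrays of the comparison in the model and 14 with median scaling.

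**Figure D1:**
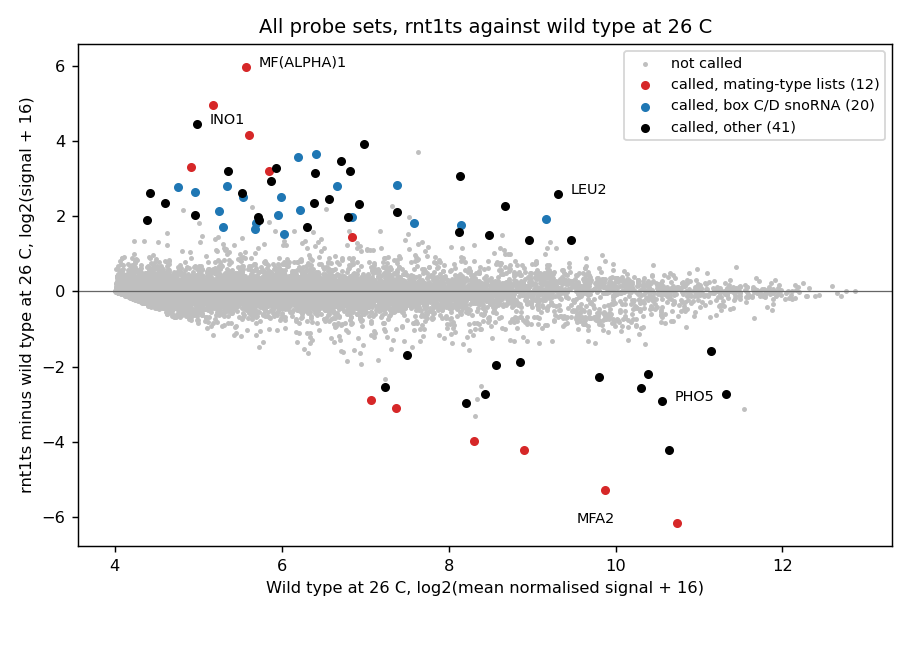
Each point is 1 of the 9275 probe sets, with the mean log2(signal + 16) of the wild type arrays at 26 C on the x axis and the difference of rnt1ts from it, in log2 units, on the y axis; called probe sets are coloured, those of the mating-type lists apart. The called points lie far from 0 on both sides, 54 above and 19 below.

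The targeted gene was read first. The RNT1 signal was 181 and 149 on the wild type arrays and 39.8 on the rnt1ts array. It was thus lower in rnt1ts but well above background, whereas the rnt1d arrays at 26 C stood at 1.31 and 2.03, at background. The log2 difference from wild type was -1.69 ± 0.23 (SE), and limma's adjusted p of 0.0485 lay just inside the threshold. The call did not hold with median scaling, with a pseudocount of 1 or 64, on the deposited scale, with only the 3 arrays in the model, without the mutant arrays at 37 C, and without any single wild type or rnt1d array at 26 C. Directly against rnt1d, rnt1ts was higher by 1.66 (limma, adjusted p = 0.0364).

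The next measured gene along chromosome XIII in the reference annotation is CUS1, which encodes a U2 snRNP protein needed for splicing and was singled out after its values were seen. Its signal was 34.5 and 39.6 in wild type and 182 in rnt1ts. The rnt1d arrays, at 41.4 and 40.3, were close to wild type, so the groups did not overlap and rnt1ts alone stood apart at 26 C. CUS1 rose by 1.90 ± 0.21 (SE) against wild type (limma, adjusted p = 0.0260) and was 1.80 above rnt1d (limma, adjusted p = 0.0263). On the array labelled rnt1d at 37 C it was 137, on that labelled rnt1ts 45.2 and on wild type at 37 C 25.2. None of the neighbouring protein genes measured (RNA1, TAF9, BCH1, DFG5, YHM2 and ZRC1) was called, with differences from -0.12 to 0.50. The call of CUS1 was lost on the deposited scale, with only the 3 arrays in the model and without either rnt1d array.

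**Figure D2:**
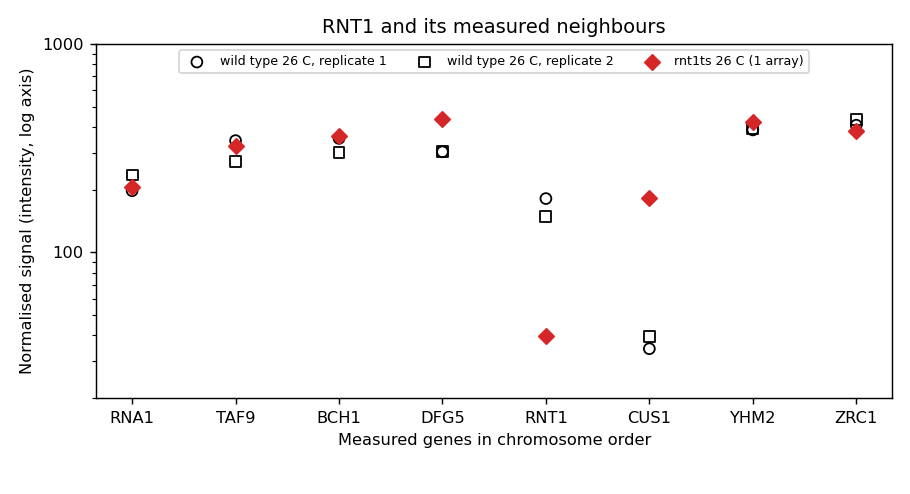
Normalised signal (log axis) of RNT1 and the protein genes measured on either side of it, in chromosome order; open symbols are the wild type arrays at 26 C and filled diamonds the rnt1ts array. RNT1 is lower and CUS1 higher in rnt1ts, and the other genes lie near their wild type values.

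The arrays differed in mating-type transcripts. All 5 alpha-specific genes were called higher in rnt1ts, against 0.582% of all probe sets. Of the 7 a-specific genes 5 were called lower, against 0.205% of all probe sets. MF(ALPHA)1, the main gene for the alpha pheromone precursor, had signals of 33.5 and 29.8 in wild type and 2988 in rnt1ts. MF(ALPHA)2, the minor gene for the same pheromone, went from 20.4 and 19.96 to 1112, and AFB1, whose product binds a-factor, from 33.5 and 32.4 to 868. STE3, the receptor for a-factor on alpha cells, went from 13.0 and 15.3 to 281, and SAG1, the alpha-agglutinin of the cell surface, from 54.5 and 29.0 to 508. In each of these genes the rnt1ts array was far above both wild type arrays. The log2 differences ran from 3.22 for SAG1 to 5.98 for MF(ALPHA)1, with limma's adjusted p from 0.00169 to 0.0155.

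The a-specific genes went the other way. MFA2, a gene for the a-factor precursor, had signals of 1879 and 1501 in wild type and 7.47 in rnt1ts, and MFA1, the other a-factor gene, 1159 and 684 against 7.11. BAR1, the protease that degrades alpha-factor, had 476 and 447 against 9.83, and STE2, the alpha-factor receptor, 293 and 306 against 4.09. The remaining called member, the a-agglutinin subunit gene AGA2, had 134 and 163 against 3.17. All 5 were at background in rnt1ts, so their folds are lower bounds, which ran from at least 14.5-fold for AGA2 and at least 29.4-fold for STE2 up to at least 165-fold for MFA2, with limma's adjusted p from 0.00314 to 0.0182. The second MFA1 probe set gave -1.93 and was not called. STE6, the exporter of a-factor, had signals of 147 and 124 against 14.1 (log2 difference -2.33, limma, adjusted p = 0.0789), and ASG7 was at or under the bound on all 3 arrays. HMRA1, the silent copy of the a1 regulator gene, which shares its sequence with the expressed MAT locus of a cells, was called lower in 1 of its 3 probe sets, with signals of 114 and 123 in wild type and 1.98 in rnt1ts.

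Summed over the list, the alpha-specific signal was 155 and 126 in wild type and 5758 in rnt1ts, and the a-specific signal 4097 and 3227 against 49.6. The rnt1d arrays at 26 C had alpha-specific sums of 142 and 164 and a-specific sums of 1537 and 1359, on the side of wild type. In RNA from whole cultures, fewer cells of a type and less RNA per cell cannot be told apart. None of the 10 genes that haploid cells of both types express was called, with differences from -0.62 for HO, the mating-type switching endonuclease, to 0.30 (median -0.20, all probe sets -0.01). Of 16 pheromone-induced genes 1 was called higher, against 0.582% of all probe sets. This was PRM10, a membrane protein gene, with signals of 95.5 and 101 in wild type and 296 in rnt1ts. The rnt1d arrays had 331 and 313 for PRM10. Because the rnt1ts array differed from wild type in mating-type transcripts as well as in RNT1, mating type and the rnt1ts allele cannot be told apart in any difference that follows.

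**Figure D3:**
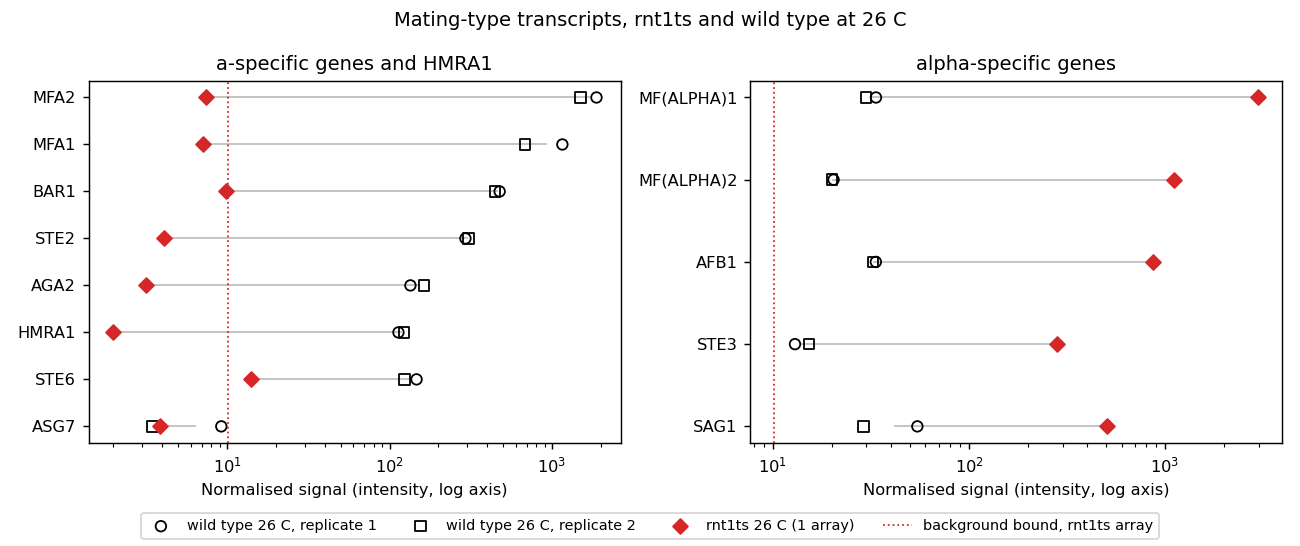
Normalised signal (log axis) of the a-specific genes with HMRA1 (left) and the alpha-specific genes (right) on the wild type arrays at 26 C (open symbols) and the rnt1ts array (filled diamonds); the dotted line is the background bound of 10.2 on the rnt1ts array. The a-specific signals of rnt1ts lie at or near the bound, and its alpha-specific signals lie above both wild type arrays.

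Box C/D snoRNAs, which guide ribose methylation of ribosomal RNA, made up the largest group of calls outside the mating-type lists. Of 17 box C/D snoRNAs made from polycistronic precursors, 12 were called higher and 0 lower in rnt1ts, against 0.582% of all probe sets. Their median difference over all 17 was 1.98, and all probe sets had a median of -0.01. The list was drawn up from textbook knowledge of Rnt1 substrates with earlier results of these data known. Whether the probe sets of snoRNAs, snRNAs and ribosomal RNA read mature RNA or uncut precursor was not tested.

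In the precursor of SNR72 to SNR78, 6 of the 7 snoRNAs were called higher. SNR73 had signals of 66.7 and 48.0 in wild type and 858 in rnt1ts, and SNR74 8.15 and 13.9 against 168. These were the largest differences of the precursor, 3.59 and 2.78. SNR76 had 60.6 and 56.2 against 320, SNR72 88.5 and 109 against 436, SNR75 179 and 174 against 669, and SNR77 299 and 237 against 944. In these 4 the differences ran from 1.77 to 2.18. SNR78 was at background in both wild type arrays and had 18.2 in rnt1ts, and was not called (difference 0.89).

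All 3 snoRNAs of the precursor SNR41-SNR70-SNR51 were called higher, by amounts close to each other. SNR41 had 42.8 and 52.4 in wild type and 348 in rnt1ts (difference 2.52), SNR70 147 and 154 against 1178 (2.84) and SNR51 86.2 and 84.2 against 690 (2.80). In the precursor SNR57-SNR55-SNR61 the members differed more. SNR57 had 18.6 and 11.5 against 178 (2.66), SNR55 58.0 and 34.3 against 234 (2.04) and SNR61 208 and 188 against 286 (0.50, not called). Of the pair SNR53 and SNR67, SNR67 went from 579 and 541 to 2175 (1.93, called), and SNR53 had 11.7 and 12.9 against 18.8 (0.30, not called). Neither SNR190 nor SNR128 was called. SNR190 was at background in both wild type arrays and had 16.4 in rnt1ts (0.91), and SNR128 had 68.4 and 56.5 against 63.8 (0.03). Limma's adjusted p for the 12 called members ran from 0.00505 for SNR73, SNR70 and SNR51 to 0.0485 for SNR55. On the deposited scale, or with only the 3 arrays of the comparison in the model, 7 of the 17 were called.

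The rnt1d arrays at 26 C, which share the wild type controls, had a median difference from wild type of 3.38 over the 17 snoRNAs, with 16 called higher (3.54% of all probe sets were called higher there and 1.95% lower). Set directly against rnt1d, 8 of the 17 were called lower in rnt1ts and 0 higher, where 0.809% of all probe sets were called lower and 0.765% higher (median -1.47). SNR55 showed the largest gap, with 2914 and 2488 in rnt1d against 234 in rnt1ts (difference -3.44, limma, adjusted p = 0.00764). SNR61 followed, with 2212 and 1840 against 286 (-2.75, limma, adjusted p = 0.00673). SNR41 had 1650 and 1571 against 348 (-2.16, limma, adjusted p = 0.00926). For SNR51 (-1.02) and SNR73 (-0.95) the difference from rnt1d did not pass the test, so the distance between the mutants varied from snoRNA to snoRNA.

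Box C/D snoRNAs transcribed from a promoter of their own, many of them also cut by Rnt1 at a stem upstream of the mature RNA, gave 7 calls among 20 measured, all higher, against 0.582% of all probe sets. SNR71 had signals of 63.5 and 74.2 in wild type and 1049 in rnt1ts, a difference of 3.65 ± 0.19 (SE; limma, adjusted p = 0.00326). SNR52, which RNA polymerase III transcribes, had 29.9 and 19.3 against 268 (2.82), and SNR48 25.8 and 34.9 against 247 (2.51). SNR71 stood above every other snoRNA of both C/D lists in its difference from wild type. SNR56 had 20.6 and 23.3 against 152, SNR39B 41.7 and 29.7 against 167, SNR50 29.7 and 41.1 against 145 and SNR63 54.8 and 43.5 against 172, with differences from 1.53 to 2.15. SNR69 (70.7 and 63.1 against 232) and SNR64 (at background in wild type, 31.7 in rnt1ts) were over 2-fold higher than both wild type arrays and were not called. The other 11 were within 2-fold of at least 1 wild type array, among them SNR45 at -0.34, the lowest of the list. Against rnt1d, 2 of the 20 were called lower in rnt1ts, SNR50 (-1.62, limma, adjusted p = 0.0352) and SNR64 (-2.06, limma, adjusted p = 0.0250). SNR52 had 140 and 115 in rnt1d against its 268 in rnt1ts, a gap of 0.99 that did not pass the test. The number called fell to 1 with only the 3 arrays of the comparison in the model, to 3 on the deposited scale and to 4 with median scaling, and to 3 or 4 without an rnt1d array.

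None of the 16 box H/ACA snoRNAs measured, which guide pseudouridylation, was called, with differences from -0.66 for SNR8 to 0.56 for SNR33 (median 0.06). None of the 4 intron-encoded snoRNAs measured was called either, nor any of 8 host genes, whose largest difference was 0.71 in RPS22B (limma, adjusted p = 0.299), a ribosomal protein gene whose intron holds a snoRNA. Of 6 snRNAs and other stable RNAs 1 was called higher, against 0.582% of all probe sets. It was SNR19, the U1 snRNA of the spliceosome, with signals of 18.1 and 12.3 in wild type and 111 in rnt1ts (2.03, limma, adjusted p = 0.0419). That call was lost with median scaling, with a pseudocount of 64, on the deposited scale, with only the 3 arrays in the model, and without the mutant arrays at 37 C or any single wild type or rnt1d array at 26 C. On the rnt1d arrays SNR19 had 348 and 257.

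None of the 4 ribosomal RNA genes, each read by its brightest probe set, was called against wild type. RDN18-1 was at background on the wild type and rnt1ts arrays. RDN5-1 had 500 and 123 in wild type and 234 in rnt1ts, with a standard error of 1.30, so these readings say little. The 7 probe sets of RDN37-1 ran from -0.67 to 0.15, and none was called. RDN25-1, the large-subunit RNA, had 33.3 and 19.3 in wild type and 35.5 in rnt1ts, but 5069 and 4510 on the rnt1d arrays (rnt1ts minus rnt1d -6.54, limma, adjusted p = 0.000785). Its rnt1ts signal lay just above that of the first wild type array, and the rnt1d arrays stood far apart from the other arrays at 26 C. None of 11 mRNAs reported as Rnt1 substrates was called (median 0.11), nor any of 30 snoRNP and assembly proteins (median -0.12) or 29 nuclear RNA processing factors (median -0.02).

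**Figure D4:**
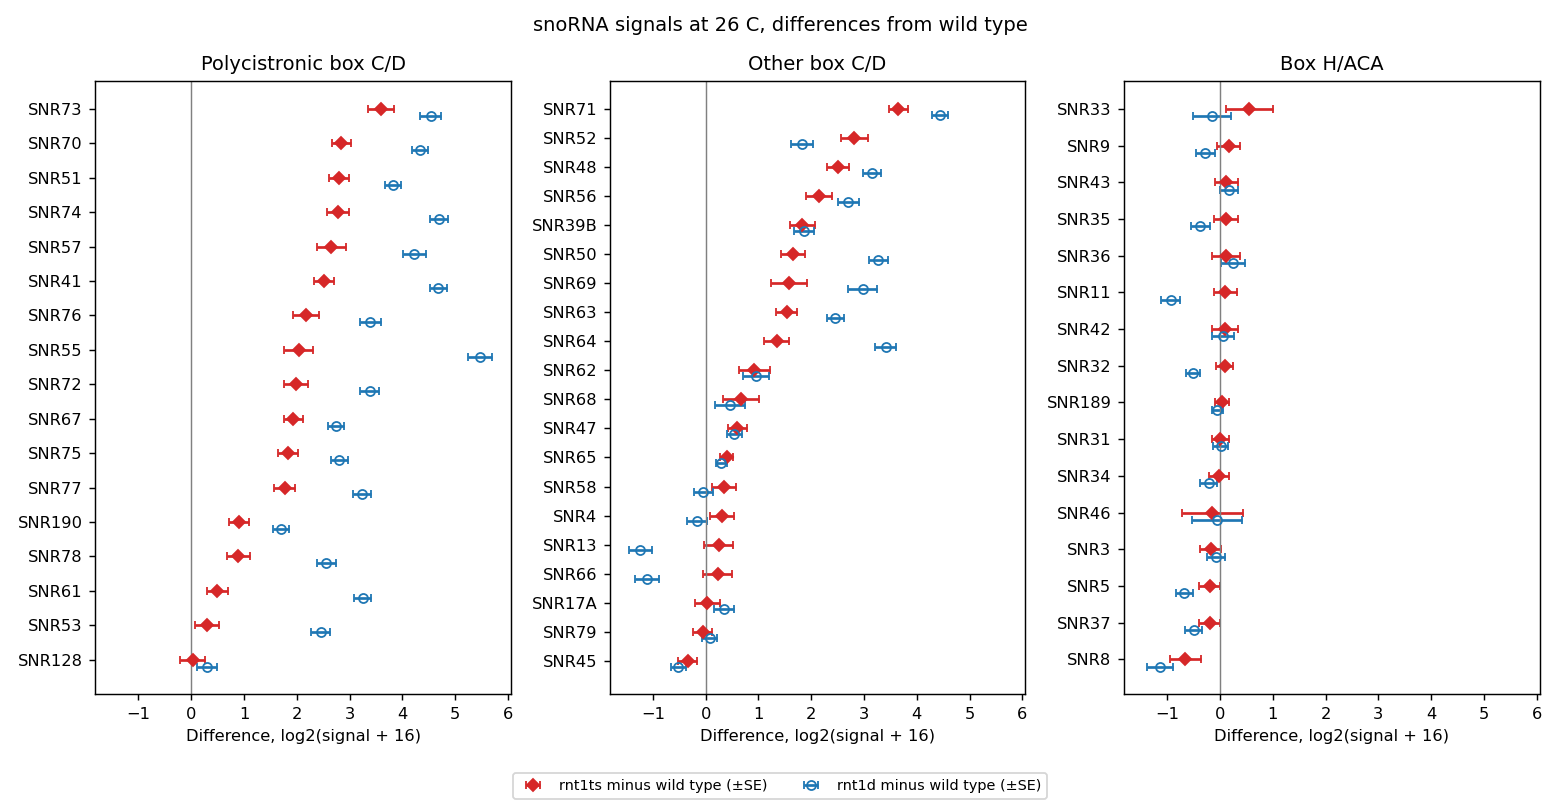
Difference from wild type at 26 C in log2(signal + 16), with its standard error, of each measured snoRNA in rnt1ts (filled diamonds) and rnt1d (open circles), which share the wild type arrays; the panels hold polycistronic box C/D, other box C/D and box H/ACA snoRNAs. In the polycistronic panel every rnt1ts point lies left of its rnt1d point, and the H/ACA points of rnt1ts lie near 0.

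Of 11 genes of inositol and phospholipid synthesis measured, 4 were called higher in rnt1ts and 0 lower, against 0.582% of all probe sets called higher. Many of these genes carry a shared promoter element that the Ino2 and Ino4 proteins bind and are repressed by Opi1 when inositol is plentiful. Past 2-fold from both wild type arrays were 7 of the 11, against 1.14% of all probe sets, and the median was 1.09. The list, like the others, was drawn up with earlier results of these data known. INO1, which makes inositol phosphate from glucose phosphate in the first step of inositol synthesis, had signals of 18.6 and 12.5 in wild type and 672 in rnt1ts, a rise of 4.45 ± 0.25 (SE; limma, adjusted p = 0.00332). The rnt1d arrays had 38.2 and 28.6, and rnt1ts was 3.81 above them (limma, adjusted p = 0.00425). INO1 thus had the largest rise outside the mating-type lists and was high on the rnt1ts array alone at 26 C.

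OPI3, which methylates phosphatidylethanolamine derivatives on the way to phosphatidylcholine, went from 402 and 385 to 1949 (2.26, limma, adjusted p = 0.00765). PSD1, the mitochondrial phosphatidylserine decarboxylase, went from 242 and 283 to 819 (1.59, limma, adjusted p = 0.0317). ITR1, the main inositol transporter, went from 724 and 658 to 1794 (1.36, limma, adjusted p = 0.0419). In all 3 the rnt1ts value exceeded both wild type arrays by more than 2-fold. CHO1, the phosphatidylserine synthase, had 280 and 321 against 734 (1.25, limma, adjusted p = 0.0664), and CKI1, choline kinase, 112 and 104 against 247 (1.09). The rnt1d arrays had 713 and 738 for CHO1, and 1050 and 922 for OPI3. These 2 members were called higher there, where 3.54% of all probe sets were. The CHO1 signals of the mutants were thus close, while those of INO1 lay far apart. On the deposited scale, with median scaling or with only 3 arrays in the model, 2 of the 11 were called.

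The phosphate regulon is the set of genes that the Pho4 factor activates when phosphate runs low. Of 14 measured, 5 were called lower in rnt1ts against 0.205% of all probe sets. Over 2-fold lower than both wild type arrays were 11, against 0.744%, and all 14 had negative differences (median -1.73). Earlier results of these data were known when this list was drawn up. GIT1, a transporter of glycerophosphoinositol, had signals of 256 and 301 in wild type and 21.2 in rnt1ts (-2.98, limma, adjusted p = 0.00602). PHO5, the secreted acid phosphatase, had 1506 and 1484 against 185 (-2.91, limma, adjusted p = 0.0122). PHM6, of unknown function, had 106 and 163 against 9.51, at background and at least 12.9-fold lower (limma, adjusted p = 0.0247). VTC3 and VTC1, subunits of the complex that makes vacuolar polyphosphate, had 449 and 444 against 109, and 2070 and 2412 against 740 (-1.88 and -1.57). In all 5 the rnt1ts array lay below both wild type arrays. The call of VTC1 was lost with median scaling and that of PHM6 with a pseudocount of 1, both also with only the 3 arrays in the model.

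The uncalled members included larger differences. PHO84, the high-affinity phosphate transporter, had 2941 and 2959 in wild type and 321 in rnt1ts. Its rnt1d arrays, at 40.2 and 373, lay far apart, which widened the standard error to 1.02, and the difference of -3.14 did not pass (limma, adjusted p = 0.454). SPL2, a regulator of phosphate uptake, had 264 and 340 against 15.7 (-3.32, limma, adjusted p = 0.0872). The regulon's median in rnt1d was -1.84 against the same wild type arrays, and 0 members differed between rnt1ts and rnt1d by limma's test, the smallest such adjusted p being 0.0683, for PHO5.

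**Figure D5:**
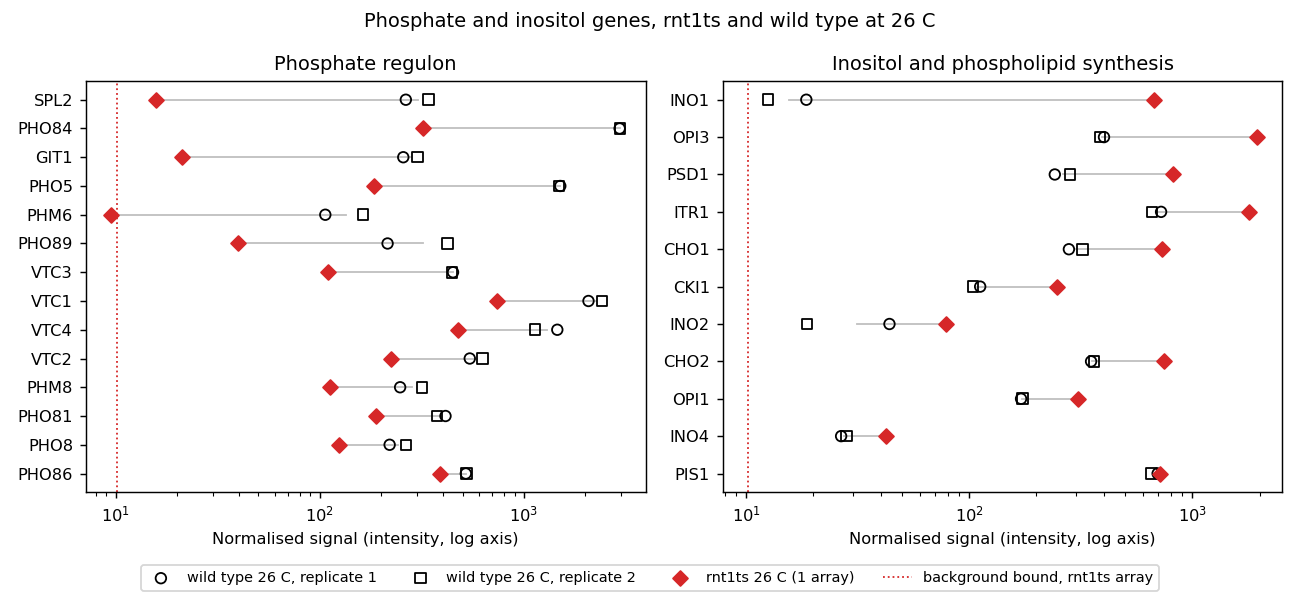
Normalised signal (log axis) of the phosphate genes (left) and the inositol and phospholipid genes (right) on the wild type arrays at 26 C (open symbols) and the rnt1ts array (filled diamonds), with the background bound of the rnt1ts array dotted. The rnt1ts points lie left of wild type in the phosphate panel and right of it in nearly all of the inositol panel.

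LEU2, the isopropylmalate dehydrogenase of leucine synthesis and a common selection marker, had signals of 592 and 645 in wild type and 3812 in rnt1ts. The rnt1d arrays had 211 and 168, on the other side of wild type. The rise was 2.59 ± 0.20 (SE; limma, adjusted p = 0.00744), 2 of the 3 LEU2 probe sets were called with differences between 2.59 and 3.93, and rnt1ts was 4.23 above rnt1d (limma, adjusted p = 0.00166). None of 14 genes for the rest of leucine and branched-chain amino acid metabolism was called (median -0.04). LEU2 was the only one of 8 selection marker genes called, where 0.582% of all probe sets were called higher. TRP1, another marker, had 43.8 and 39.5 against 193 (1.86, limma, adjusted p = 0.0664). The rnt1d arrays had 149 and 98.7 for TRP1, above wild type as well. Whether a plasmid or an integrated marker carries LEU2 in either strain is not stated in the labels, nor is the leucine in the medium of each array.

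In arginine synthesis and its neighbours under the Gcn4 activator, 1 of 19 genes was called, ARG3, the ornithine carbamoyltransferase, with 66.8 and 59.4 against 243 (1.71, limma, adjusted p = 0.0350). ARG1 and ARG8, both enzymes of the same pathway, had differences of 1.15 and 1.23 and were not called. The share of all probe sets called higher was 0.582%, for this list and the next. Of 20 genes for sulfur and methionine 1 was called, SAM2, an S-adenosylmethionine synthetase, with 488 and 478 against 1265 (1.36, limma, adjusted p = 0.0375). MET13, a methylenetetrahydrofolate reductase, was also higher, with 158 and 141 against 708 (2.13, limma, adjusted p = 0.0182). The calls of ARG3 and SAM2 were lost on the deposited scale, with only the 3 arrays in the model and without any single wild type or rnt1d array, that of SAM2 also with median scaling, and that of MET13 on the deposited scale and without either wild type array. In the sulfur list 17 of 20 differences were negative (median -0.28), although on the deposited scale the median was 0.04 where that of all probe sets was 0.30.

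PIR3, a glycoprotein of the cell wall, went from 132 and 62.1 in wild type to 979 in rnt1ts (3.21, limma, adjusted p = 0.0305) and was the only one of 24 cell wall genes called. Its rnt1d arrays had 517 and 488. Over all probe sets 0.582% were called higher in rnt1ts. Detoxification genes gave 2 calls among 19, both lower, against 0.205% of all probe sets called lower. Like all the lists, this one was drawn up with earlier results of these data known. GTT2, a glutathione transferase, had 295 and 365 against 36.4 (-2.72, limma, adjusted p = 0.00780), and ATR1, a multidrug exporter, 336 and 391 against 81.9 (-1.95, limma, adjusted p = 0.0404). On the rnt1d arrays GTT2 had 61.5 and 59.9 and ATR1 88.3 and 62.9, below wild type as well. PTR2, the transporter of small peptides, went from 1404 and 1242 to 278 (-2.19, limma, adjusted p = 0.0220). AAD4, a putative aryl-alcohol dehydrogenase of a gene family with near-identical copies, was the only one called of 21 genes known to vary between strains, lower in 1 of its 2 probe sets (735 and 1011 against 165), and its reading is uncertain for that reason.

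COX1, the mitochondrially encoded subunit of cytochrome c oxidase, was read by 3 probe sets that disagreed. The brightest had signals of 1212 and 1288 in wild type and 196 in rnt1ts (-2.58, limma, adjusted p = 0.00622). The others rose, from 33.7 and 39.5 to 191 (1.98) and from 60.0 and 76.0 to 409 (2.35). Which part of the gene each probe set covers was not analysed here. Of 8 mitochondrial genes 6 were above background in rnt1ts. OLI1, an ATP synthase subunit, had 2353 and 2542 in wild type and 2224 in rnt1ts, and ATP6, another, 541 and 647 against 822. COX3, an oxidase subunit, had 40.4 and 30.6 in wild type and 7.002 in rnt1ts, at background and at least 3.46-fold lower, and was not called. COX2, a further subunit of that enzyme, was at background on all 3 arrays. The summed signal of the 8 genes, which the bright ones dominate, was 4194 and 4568 in wild type, 3314 in rnt1ts, and 13.0 and 16.2 on the rnt1d arrays.

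The iron regulon was among the lists with no call in rnt1ts against wild type. In it 10 of 28 genes were called higher in rnt1d (3.54% of all probe sets) and 0 in rnt1ts (median -0.01), and 7 were called lower in rnt1ts than in rnt1d (0.809% of all probe sets). FRE1, a ferric reductase, had the largest difference there, -1.33 (limma, adjusted p = 0.301). None of 25 heat shock genes, 20 general stress genes, 21 hexose transport and glucose genes, 9 zinc genes, 13 retrograde and citrate cycle genes, 12 low-oxygen genes, 19 cell cycle genes or 75 cytosolic ribosomal protein genes was called either. Their medians ran from -0.06 in the zinc list to 0.53 in the general stress list, and that of the ribosomal proteins was 0.06 here and -0.04 with median scaling. Uncalled members with larger differences included GRE2 of the general stress list (-1.55) and HSP26 of the heat shock list (-1.52). In the other direction, ZRT1 of the zinc list had 1.17 and HXT1 of the hexose list 1.14.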

How the data were processed

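The authors deposited one linear intensity per probe set and array, made with MAS5, per the submitters' processing notes, with version, scaling target and build not given in the sources used here. The deposited medians of the 8 arrays ran from 31.0 to 69.5, so all 9335 probe sets (60 controls included) were quantile normalized, and log2(signal + 16) was fitted in limma 3.58.1 (R 4.3.3) as 6 group means with moderated, trended variances, two-sided. Wild type and rnt1d at 26 C supplied the spread. Precision is limited by the few arrays. For a transcript at background the fold is a bound, the brighter mean over the higher of the bound and its own signal.

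Of 9275 probe sets, 6504 name 1 gene (5656 genes, all matched in RefSeq), 328 several and 2443 none. A gene is represented by its brightest probe set. Members and the 36 lists (1 of them, the 2-micron plasmid, has no probe set here) were chosen with earlier results of these data known. The naming rule covered RNT1, the mating-type and stable RNA lists, the 20 highest and 20 lowest called, and up to 4 called members per list. Not every member of the mating-type and stable RNA lists is named. For lists with no call the rule allowed 3 by smallest p, of which only some are named. CUS1 and its neighbours, YEL073C and uncalled members of lists with calls were added after their values were seen. The fit was tested on simulated data. Alternatives covered scaling, pseudocount, filters, the arrays fitted, the variance trend, a replicate block and leaving out arrays.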

Additional observations from a re-analysis of the deposited data

Results flagged for a closer look

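The array labelled rnt1d at 37 C, which is compared in no test here, carried some alpha-specific transcripts well above the wild type arrays. Its signals were 1957 for MF(ALPHA)1, 60.54 for STE3 and 459.1 for AFB1, against 33.0, 19.5 and 30.6 for wild type at that temperature. The rest of the alpha-specific list was near wild type at 37 C, MF(ALPHA)2 with 13.4 against 17.6 and SAG1 with 69.7 against 61.1. The a-specific signals of the array labelled rnt1d summed to 120, against 2200 for wild type, and its RNT1 signal was 71.4. The array labelled rnt1ts at 37 C had 23.2 for MF(ALPHA)1, 921 for MFA2 and 1.26 for RNT1. No test was made with single arrays, and which label applies to these arrays was not tested.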

How the results depend on the processing

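None of the 59 called probe sets with a single gene changed direction under any alternative, and 17 of them kept their call in every alternative that left out no replicate: MF(ALPHA)1, MF(ALPHA)2, AFB1, STE3, MFA1, MFA2, BAR1, STE2, INO1, OPI3, LEU2, PHO5, SNR41, SNR51, SNR70, SNR71 and SNR73. The count of 73 became 113 (36 lower, 99 outside the mating-type lists) with probe sets up to the 25th percentile of mean signal left out. With those up to the 50th percentile left out it became 107, with 34 lower and 94 outside those lists. With only the 3 arrays in the model it was 45, with 29 higher and 35 outside the mating-type lists. The deposited scale gave 50, with 10 lower, and moved the median of all probe sets to 0.30. Leaving out 1 array gave 0 to 51 calls in all, 0 to 35 higher, 0 to 16 lower and 0 to 41 outside the mating-type lists, the 0 being with either wild type array out, where the smallest adjusted p was 0.0937. The labels name no shared batch, but arrays of wild type and rnt1d with the same replicate number deviated together with r = 0.311 across probe sets. Whether the replicate number marks a pairing was not tested. With the number as a block 195 probe sets were called (113 higher, 82 lower, 181 outside the mating-type lists). The 175 probe sets past 2-fold became 57 at 4-fold, 540 with a pseudocount of 1, 100 with a pseudocount of 64, and 250 to 332 with 1 wild type array left out. Among uncalled genes the sign turned for OLI1 (0.28) and RDN37-1 (0.19) on the deposited scale. With 1 wild type array left out ASG7 ran from -0.3447 to 0.0275, SNR128 from -0.0811 to 0.138 and SNR33 from -0.0024 to 1.11. The cause was not tested.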

Other observations

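The array labelled rnt1d at 37 C was also high in genes that stood apart on the rnt1ts array at 26 C. INO1 had 1042 there and 672 in rnt1ts at 26 C, against 70.2 in wild type at 37 C. LEU2 had 3630 and 3812, against 497. OPI3 had 2773 and 1949, against 651. These are single arrays, given side by side with no test.

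Nuclear genes of the respiratory chain gave 0 calls among 34 in limma, while all 34 had positive differences from wild type (median 0.34, largest 0.63 in COX7). With median scaling 31 were positive and the median was 0.20. Set against rnt1d, 8 of the 34 were called higher in rnt1ts, where 0.765% of all probe sets were.

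Called genes lay on every nuclear chromosome except chromosome I. The median difference per nuclear chromosome ran from -0.06 on chromosome IX to 0.04 on chromosome X, and 19 mitochondrial genes had a median of -0.16. Chromosome XIII, with 453 genes measured, held the most called genes, 7 higher and 2 lower. Of those higher, 6 were snoRNAs of the SNR72 to SNR78 precursor. YEL073C, of unknown function, was called higher in both of its probe sets (1.90 and 1.98), with signals of 96.8 and 92.5 in wild type and 419 in rnt1ts for the brighter.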
